A study of Mus musculus with 6 samples.

Results

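Chromatin accessibility was examined at the loci of 10 Kruppel-like factor genes (Klf2, Klf3, Klf4, Klf5, Klf6, Klf7, Klf9, Klf10, Klf13 and Klf15) in aged and young mouse intestinal organoids. A peak was taken when the deposited annotation named a member as its gene and put it within 50 kb of that gene's annotated transcription start site. This gave 77 of the 156733 consensus peaks, and 10 of the 31309 genes that the annotation names. The rule uses gene names and distances and no measured value, but the members were chosen with earlier results of these data known. The assay was ATAC-seq, which reads out where the Tn5 transposase can reach the DNA and insert adapters, that is, where chromatin is open. The organoids, self-organising epithelial cultures of stem cells and their progeny, were grown from the small intestine of C57BL/6JRj mice. Aged mice were 20 to 22 months old and young mice 2 to 3 months old. Each age had 3 libraries of untreated cultures, kept for 3 to 5 weeks and taken at passage 4 (replicate 1), passage 3 (replicate 2) and passage 2 (replicate 3). Each library was made from 100000 dissociated cells. Whether the 3 libraries of an age stem from different animals is not given in the labels, so the p-values speak for the spread between libraries, which may be technical.

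Kruppel-like factors are transcription factors whose C-terminal zinc fingers bind GC-rich and CACCC-type DNA elements. In mammals the SP factors carry closely related zinc fingers and bind similar elements. In the mouse intestine, Klf5 is found mainly in dividing crypt cells and favours proliferation, while Klf4 is found mainly in differentiated cells and is needed for goblet cell maturation. Other members are known best as signal-responsive genes: Klf10 responds to TGF-beta, Klf9 and Klf15 to glucocorticoids, and Klf2 and Klf4 to fluid shear in endothelium.

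Promoter sequences from RefSeq (GRCm38.p6) are shown for 3 members whose results differ below. Klf3 had the called promoter peak, Klf2 had a promoter peak whose ages did not overlap, and Klf9 had the largest fitted trend with passage among the 9 promoter peaks. Each run holds the 250 bases before the RefSeq start, on the gene's strand, and lay inside that gene's promoter peak. Capitals mark the 8-base element CCNCNCCC on either strand, a form of the KLF and SP binding element. The windows are chr5:64803271-64803520 for Klf3, chr8:72318812-72319061 for Klf2 and chr19:23140976-23141225 for Klf9, all on the plus strand.
Klf3: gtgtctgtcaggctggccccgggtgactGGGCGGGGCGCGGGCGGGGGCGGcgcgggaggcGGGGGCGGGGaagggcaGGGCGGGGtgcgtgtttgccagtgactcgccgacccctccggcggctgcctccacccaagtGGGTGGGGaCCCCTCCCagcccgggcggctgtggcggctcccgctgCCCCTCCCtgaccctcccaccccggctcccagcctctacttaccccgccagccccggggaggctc
Klf2: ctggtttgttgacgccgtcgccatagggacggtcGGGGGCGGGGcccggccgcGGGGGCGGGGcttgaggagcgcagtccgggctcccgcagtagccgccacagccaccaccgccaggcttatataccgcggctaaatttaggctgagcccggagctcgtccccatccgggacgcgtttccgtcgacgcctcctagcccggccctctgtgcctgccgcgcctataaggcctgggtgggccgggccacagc
Klf9: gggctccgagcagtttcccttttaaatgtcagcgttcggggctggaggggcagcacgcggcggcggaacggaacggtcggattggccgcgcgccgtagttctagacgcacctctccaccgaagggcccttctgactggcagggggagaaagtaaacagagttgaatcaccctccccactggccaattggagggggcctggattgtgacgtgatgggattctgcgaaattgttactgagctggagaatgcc
The Klf3 window held 10 matches of CCNCNCCC, some of them overlapping, the Klf2 window held 4 and the Klf9 window held 0.

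RefSeq promoter entries were matched for 8 of the 10 members, all but Klf5 and Klf10. Of these 8, 7 held CCNCNCCC, against 45.9% of all 32851 RefSeq promoter windows of the same length. The numbers of matches were 9 for Klf4, 8 for Klf7, 5 for Klf13, 3 for Klf15 and 2 for Klf6. The GC box GGGCGG, which can overlap that element, was in 7 of the 8 members and in 32.7% of all windows. The windows had a GC content of 59.2% to 78.4% and 13 to 37 CpG dinucleotides, whereas the medians over all windows were 52.4% and 6. CCAAT was in 4 members, among them Klf9 with 3 matches, and in 33.9% of all windows. The element CACGTG was in Klf4, Klf6 and Klf15, against 6.02% of all windows. A match of the core of MEF2 sites (CTA, any 4 bases, then TAG) was found in Klf2 alone of the 8, starting 118 bases before the start, and in 3.20% of all windows. TATAAA, in 12.4% of all windows, and TGACGTCA, in 1.55%, were in 0 of the 8. All motifs were searched on both strands, and each match is a description of letters in these windows.

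Depth differed between libraries. The aged libraries held 21687816 to 26093521 counts in peaks and the young libraries 7278161 to 25901670. The shallowest was young replicate 1, in which 5283 peaks had no count, while the other 5 libraries had 123 to 718 such peaks. Of 10 epithelial marker genes, 9 had a promoter peak (all but Vil1), with a median of 41.0 CPM (counts scaled to a common library size). Their means ran from 2.68 CPM at Krt20 to 73.3 CPM at Cdx2. The label of intestinal epithelium was thus borne out by the list, but not at Krt20. The stromal marker Pdgfra had a promoter peak with a mean of 19.3 CPM. Of 9 immune markers only Cd79a had a promoter peak, with at most 0.660 CPM in an aged and 1.05 CPM in a young library. Ptprc, the pan-leukocyte marker, had none.

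The values below are CPM, obtained by dividing the deposited counts by TMM-scaled library sizes. A log2 fold change is that of aged over young. Tests are edgeR's quasi-likelihood test over all 132055 peaks that passed a filter on low counts. The threshold for a call was 0.05 on the p-value adjusted by Benjamini and Hochberg over all these peaks. In bulk cultures, a change in the share of a cell type and a change in accessibility per cell cannot be told apart.

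In the aged libraries 2 Klf peaks were called as more open, the Klf3 promoter and an intron 1 peak of Klf10. Neither call held when aged replicate 1, 2 or 3 or young replicate 1 or 3 was left out. Few other Klf peaks differed beyond the spread between libraries. Of the 77 peaks, 72 passed the filter and 2 of those (2.78%) were called, both higher in aged. Among all peaks tested 1.13% were called, and 0.619% were called higher in aged. An unadjusted p under 0.05 was found for 6 of the 72 (8.33%), against 9.71% of all peaks. The ages did not overlap at 8 of the 72 (11.1%), against 14.7% of all peaks. At 5 of these every aged library was above every young one, which 7.66% of all peaks showed, and at 3 every aged library was below, which 7.09% showed. The shares with an unadjusted p under 0.05 and without overlap thus lay below those of all peaks. Fold changes were positive at 43 (59.7%) and negative at 29 peaks, between -0.62 and 0.61 on the log2 scale, against 48.0% positive over all peaks tested. The median of the 72 was 0.06, against -0.01 over all peaks tested, and the median absolute value was 0.13, against 0.17. Within 1 kb of the start 9 of 10 tested peaks were positive. Of the 62 tested peaks farther away, 34 were positive and 28 negative, with a median of 0.02. With the replicate number as a block, 4 of the 72 were called (3 higher, 1 lower), where 2.67% of all peaks were called.

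**Figure D1:**
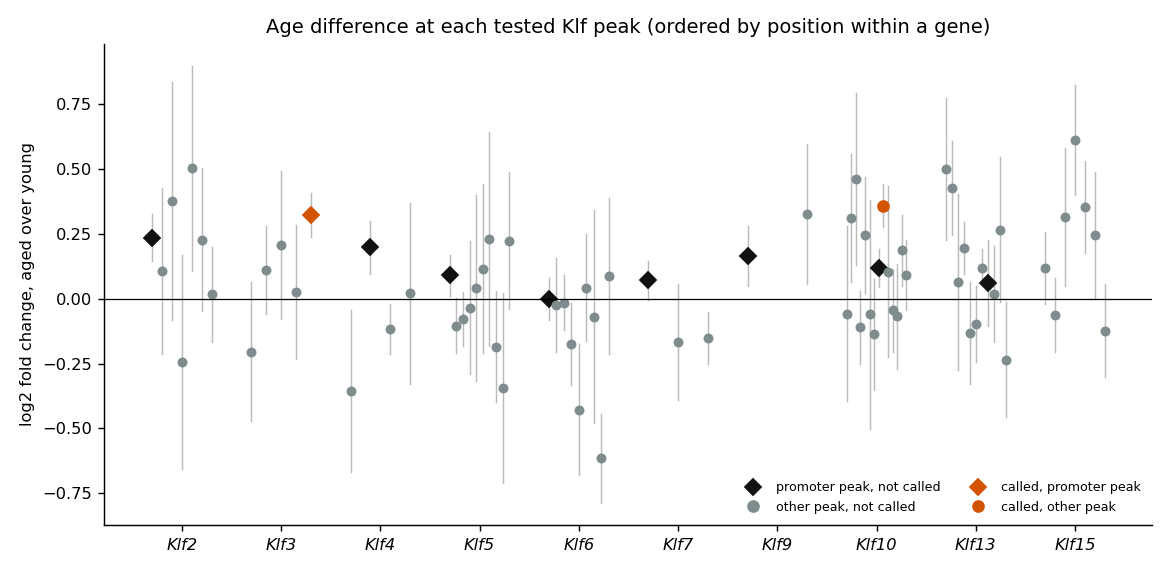
Log2 fold change (aged over young, vertical axis) with its standard error as a bar, at each of the 72 tested Klf peaks, grouped by gene and ordered by position within a gene. Diamonds are promoter peaks and circles other peaks, and orange marks the 2 called peaks, in Klf3 and Klf10. Of the 9 promoter diamonds, 8 lie above 0.

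Promoters were described with 1 peak per gene, the one with most counts within 1 kb of the annotated start. Klf15 had no such peak. Of the 9 promoter peaks 1 was called, against 1.31% of 10668 protein-coding promoter peaks tested, of which 0.356% were called higher in aged. Fold changes were positive at 8 of the 9, as at 60.1% of coding promoters. Their median was 0.12 on the log2 scale, against 0.03 over all coding promoters. Every aged library was above every young library at 2 of the 9, Klf2 and Klf3, against 11.2% of coding promoters. No promoter peak had all aged libraries below the young ones, and 16.4% of coding promoters were without overlap in either direction. The exception in sign among the 9 was Klf6, at -0.00099. The peaks over the RefSeq starts of Klf13 and Klf15, which are not among the 9, were at 0.12 and -0.06.

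**Figure D2:**
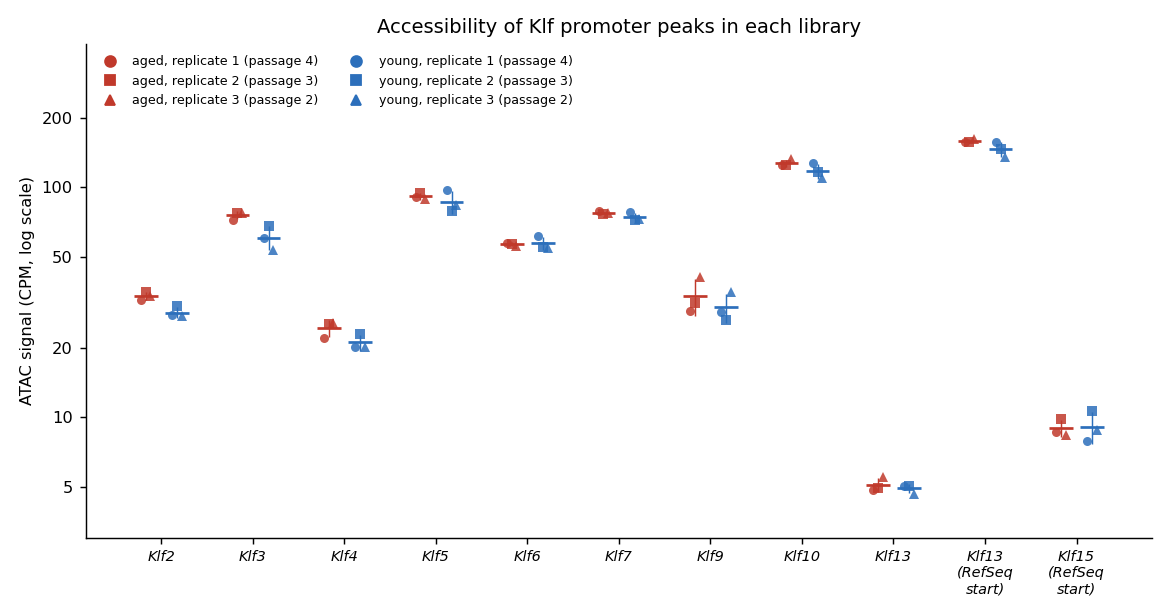
Accessibility in CPM (log axis) of the promoter peak of each Klf gene in all 6 libraries, with aged in red left of young in blue, bars for the mean and SD (n = 3) and symbols for the passage. The last 2 columns show the peaks that lie over the RefSeq starts of Klf13 and Klf15, since their annotated starts lie elsewhere. The 3 aged libraries lie above all 3 young ones at Klf2 and Klf3.

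Klf3 encodes a factor known mainly as a transcriptional repressor that recruits the co-repressor CtBP. Its promoter peak (chr5:64802799-64803813, centred 316 bases before the annotated start) spans the GC-rich window printed above. It had 72.5, 77.3 and 77.7 CPM in aged replicates 1 to 3, against 60.1, 67.9 and 53.5 CPM in young replicates 1 to 3. All 3 aged libraries lay above the highest young library. The counts behind these values were 1594, 1674 and 2002 in aged and 428, 1796 and 1015 in young libraries. The mean was 75.8 ± 2.93 CPM in aged and 60.5 ± 7.21 CPM in young (SD, n = 3 each), a log2 fold change of 0.32 (SE 0.08), and edgeR's adjusted p was 0.0460. The call was lost without aged replicate 1, 2 or 3 (adjusted p = 0.0986, 0.181 and 0.293) and without young replicate 1 or 3 (0.0962 and 0.333), and kept without young replicate 2 (0.00087). It was also lost with DESeq2 (adjusted p = 0.135) and with total counts in place of TMM factors (0.0502). After thinning all libraries to the depth of the shallowest it was lost as well (log2 0.39, adjusted p = 0.327). The replicate block kept it (edgeR adjusted p = 0.00115).

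The other 6 Klf3 peaks lay 4.03 to 38.5 kb upstream, all in intron 1 of another annotated gene (ENSMUSG00000097640), and 4 of them passed the filter. None of the 4 was called by edgeR, and each had an unadjusted p above 0.05. The strongest, 15.1 kb upstream, had 8.77, 5.59 and 6.21 CPM in aged and 6.04, 5.67 and 7.28 CPM in young libraries, so the ages overlapped. It differed by 0.11 on the log2 scale (adjusted p = 0.902). The promoter peak held 85.3% of the signal of the locus.

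Klf10, known from human cells as a TGF-beta-inducible early gene, had 15 peaks, more than any other member. The called peak (chr15:38298914-38299935) lies in intron 1, 1.28 kb past the annotated start. Aged libraries had 65.3, 67.1 and 66.5 CPM there, and young libraries 49.97, 57.6 and 47.0 CPM. The aged libraries lay within 2 CPM of each other and all above the young ones. Means were 66.3 ± 0.922 CPM in aged and 51.6 ± 5.47 CPM in young (SD, n = 3 each). The log2 fold change was 0.36 with an SE of 0.08 (edgeR adjusted p = 0.0185). This call was kept by DESeq2 (adjusted p = 0.0402), with the replicate block (0.00031) and without young replicate 2 (0.00036). It was lost without aged replicate 1, 2 or 3 (0.0783, 0.0920 and 0.136) and without young replicate 1 or 3 (0.0572 and 0.152). Thinning all libraries to the depth of the shallowest also lost it (log2 0.20, adjusted p = 0.888).

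The Klf10 promoter peak itself (chr15:38300594-38302524), 1931 bases wide, had 125, 125 and 133 CPM in aged and 127, 116 and 110 CPM in young libraries. Here the ages overlapped, since young replicate 1 exceeded 2 of the aged libraries (log2 0.12, adjusted p = 0.659). Other Klf10 peaks were weaker. A peak 29.7 kb upstream had 1.0001, 0.924 and 1.01 CPM in aged and 0.842, 0.681 and 0.686 CPM in young libraries, without overlap but at an adjusted p of 0.724. Downstream, a peak at 18.7 kb had 14.1, 10.9 and 12.2 CPM in aged and 13.2, 10.6 and 9.65 CPM in young libraries (adjusted p = 0.732).

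Within a library, the ratio of the called Klf10 intron peak to the Klf10 promoter peak does not depend on library size. It rests in part on the same values as the call. Its log2 was -0.93, -0.90 and -0.996 in aged and -1.35, -1.01 and -1.23 in young libraries, a difference of 0.25 without overlap. The same ratio, of the strongest peak farther than 1 kb to the promoter peak, could be taken for 8 members. It was without overlap for 3 of them, Klf10, Klf2 and Klf4, against 15.3% of 11310 genes with such a ratio, and Klf2 and Klf4 were lower in aged. For Klf4, intron against promoter, the log2 ratio averaged -0.03 in aged and 0.29 in young. For Klf2, the peak at 47.0 kb against the promoter, it averaged -3.03 in aged and -2.81 in young. The Klf2 libraries were at -2.834, -2.883 and -3.369 in aged and -2.822, -2.804 and -2.796 in young. Aged replicates 1 and 2 thus lay only just below the young libraries, and aged replicate 3 was far lower. The exact permutation test, two-sided, gave p = 0.1 for each of the 3, the smallest that 3 libraries against 3 allow (0.267 after adjustment over the 8 members). Any ratio without overlap gives this p, so the test adds nothing to the separation. The other 5 members overlapped.

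**Figure D3:**
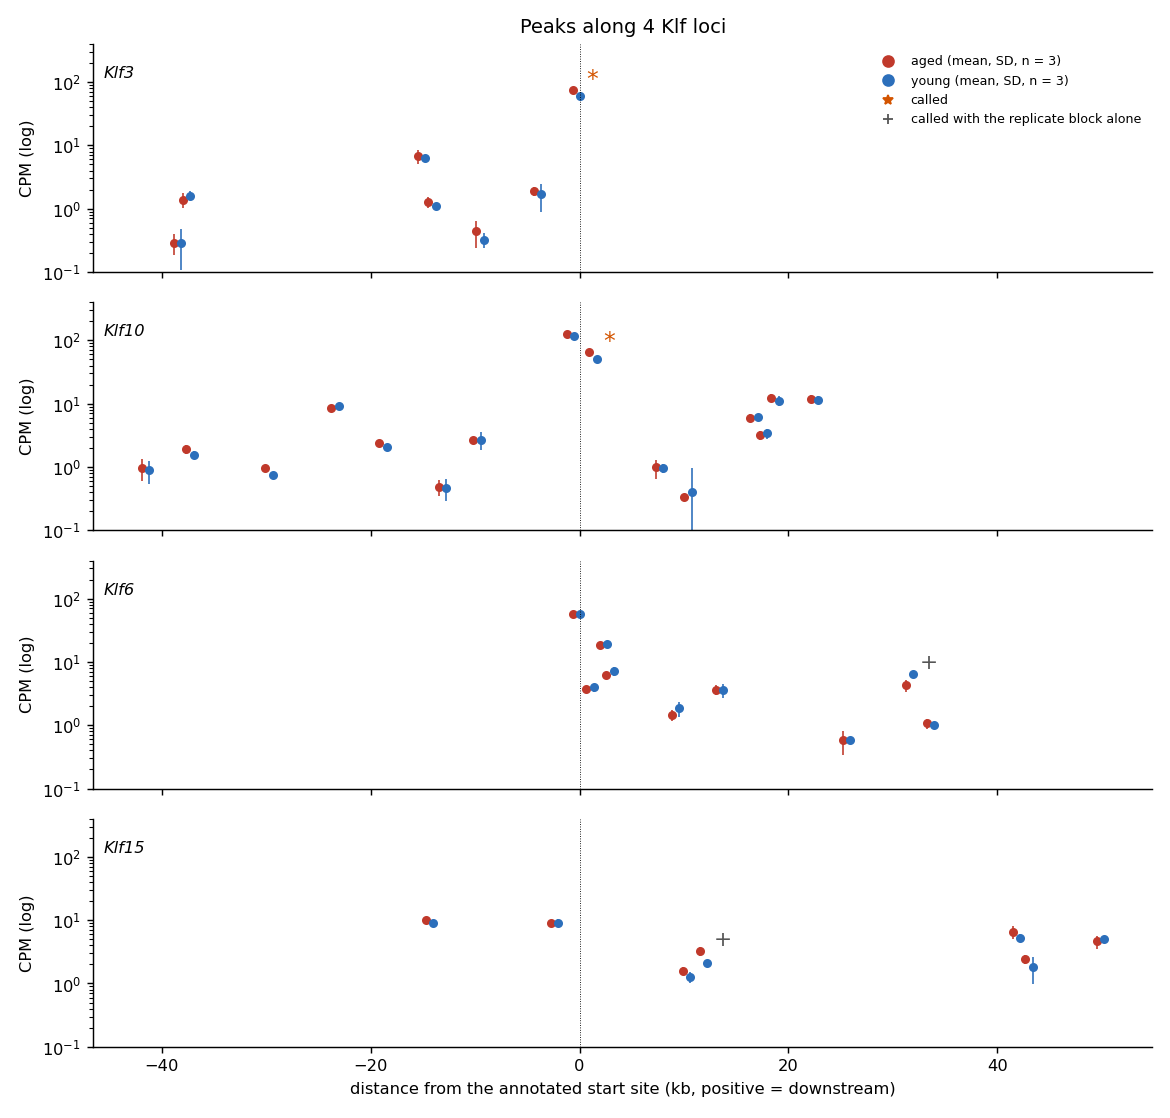
Mean CPM (log axis) with SD (n = 3) of every peak within 50 kb at 4 loci, against the distance from the annotated start in kb, with aged in red drawn just left of young in blue. Stars mark the called peaks at the Klf3 promoter and in Klf10, and plus signs the Klf6 and Klf15 peaks that were called with the replicate block alone.

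Klf6 is an early-response factor induced by injury and growth signals in several tissues. Its promoter peak (chr13:5860771-5861677) had 57.6, 56.9 and 55.6 CPM in aged and 61.2, 55.3 and 54.6 CPM in young libraries (adjusted p = 0.999). The strongest other peak, in intron 1, had 19.0, 17.5 and 19.6 CPM in aged and 19.1, 17.7 and 20.1 CPM in young libraries (adjusted p = 0.983). Neither peak separated the ages.

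A Klf6 peak 31.6 kb downstream (chr13:5892794-5893366) had the lowest fold change among the tested peaks of the members. It had 3.86, 5.41 and 3.57 CPM in aged libraries, against 6.74, 6.51 and 6.43 CPM in young libraries. Every aged library was below every young one, and the aged values were the more spread. The log2 fold change was -0.62 (SE 0.17, edgeR adjusted p = 0.0778), which was not called. With the replicate block the adjusted p was 0.00997, and without aged replicate 2 it was 0.0177. A peak at the 3' end, 9.19 kb from the start, had 1.18, 1.76 and 1.44 CPM in aged and 1.26, 2.04 and 2.22 CPM in young libraries (log2 -0.43, adjusted p = 0.635).

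Klf4 and Klf5, the pair with opposite roles along the crypt, were both open at their promoters. At Klf4, the promoter peak (chr4:55532241-55533440) had 22.1, 25.5 and 25.8 CPM in aged and 20.2, 23.1 and 20.2 CPM in young libraries (log2 0.20, adjusted p = 0.552). The peak in its single intron (chr4:55530188-55531822) had 23.3, 24.7 and 23.6 CPM in aged and 26.2, 25.3 and 26.2 CPM in young libraries, every aged library being the lower (log2 -0.12, adjusted p = 0.771). These neighbouring peaks had fold changes of opposite sign and neither was called.

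The Klf5 promoter peak (chr14:99298307-99299347) had 91.0, 94.4 and 88.6 CPM in aged and 97.1, 78.7 and 83.5 CPM in young libraries. The young libraries spread on both sides of the aged ones (log2 0.09, adjusted p = 0.794). In intron 3 of Klf5, a peak had 35.7, 34.8 and 35.4 CPM in aged and 34.2, 31.5 and 45.8 CPM in young libraries, where young replicate 3 alone was above the aged range (log2 -0.08, adjusted p = 0.879). Of the 10 Klf5 peaks tested, 5 had a positive and 5 a negative fold change. At 1 of them, 17.5 kb downstream, every aged library was below every young one (2.17 ± 0.104 CPM in aged, 2.52 ± 0.248 CPM in young, SD, n = 3 each, adjusted p = 0.860).

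Klf2 holds endothelial cells and lymphocytes in a quiescent state in mice. Its promoter peak (chr8:72318645-72319677) had 32.4, 35.1 and 33.7 CPM in aged and 27.8, 30.4 and 27.5 CPM in young libraries. Each aged library was above each young one. The means were 33.7 ± 1.35 CPM in aged and 28.5 ± 1.59 CPM in young (SD, n = 3 each; log2 0.24, SE 0.09, edgeR adjusted p = 0.324), which was not called. Beyond the gene itself, 5 of its 8 peaks lay in introns of Eps15l1, an endocytic adaptor gene, 28.9 to 47.0 kb away. The farthest was the strongest of them, with 4.55, 4.76 and 3.26 CPM in aged and 3.93, 4.35 and 3.96 CPM in young libraries (adjusted p = 0.990). Another, at 37.1 kb, had 0.591, 0.647 and 1.13 CPM in aged and 0.842, 0.492 and 0.527 CPM in young libraries (adjusted p = 0.759).

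Markers of endothelium, the tissue in which Klf2 is best known, were set beside these values. Of 6 endothelial markers, Kdr and Tie1 had a promoter peak, and their summed signal was 1.95 to 2.31 CPM in aged and 2.80 to 4.05 CPM in young libraries. Nearly all of it was Kdr, with 1.86, 2.22 and 1.94 CPM in aged and 2.81, 3.71 and 2.69 CPM in young libraries. Every aged library was below every young one there, but the peak was not called (log2 -0.65, unadjusted p = 0.00461, edgeR adjusted p = 0.187). Pecam1, Cdh5, Tek and Erg had no promoter peak. Their part in the Klf2 values was not tested.

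Klf9 and Klf15 are glucocorticoid-responsive genes, and Klf15 controls amino acid and glucose metabolism in liver and muscle. At Klf9, the promoter peak (chr19:23140670-23141909) had 29.0, 31.5 and 40.6 CPM in aged and 28.8, 26.6 and 34.9 CPM in young libraries. At both ages the library of passage 2, replicate 3, was the highest. The age difference was 0.16 on the log2 scale (adjusted p = 0.714). The trend per passage, tested beside age, was -0.20 on the log2 scale (unadjusted p = 0.00184, edgeR adjusted p = 0.579). Its sum over both peaks had a trend of -0.22 per passage (unadjusted p = 0.00057, edgeR adjusted p = 0.587). No member's sum was called by passage, where 0.00684% of all genes were called, and Klf9 and Klf15 had an unadjusted p under 0.05, against 4.27% of all genes. Passage, replicate number and the culture code of the titles coincide and cannot be told apart.

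No Klf peak was called by passage with edgeR, where 0.00303% of all peaks were called, and 5 of the 72 had an unadjusted p under 0.05, against 5.27% of all peaks.

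Klf15 had its RefSeq start under a peak (chr6:90461922-90463885) that the annotation counts as intronic, 2.40 kb from the annotated start. That peak had 8.64, 9.84 and 8.39 CPM in aged and 7.86, 10.7 and 8.81 CPM in young libraries (log2 -0.06, adjusted p = 0.941). Upstream, the strongest Klf15 peak, at 14.4 kb, had 10.3, 8.78 and 10.9 CPM in aged and 8.0003, 9.002 and 10.3 CPM in young libraries (adjusted p = 0.862). Neither separated the ages.

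The highest fold change among the tested peaks of the members was at a Klf15 peak 11.9 kb past the start (chr6:90476914-90477446). It had 2.59, 3.56 and 3.53 CPM in aged libraries, against 1.96, 2.27 and 2.00 CPM in young libraries. Every aged library was above every young one, but the log2 fold change of 0.61 (SE 0.21) had an edgeR adjusted p of 0.235. With the replicate block the adjusted p was 0.0455. Farther downstream, in intron 1 of Aldh1l1, a folate-metabolism gene, a peak at 41.8 kb had 4.96, 7.81 and 7.10 CPM in aged and 5.75, 4.46 and 5.70 CPM in young libraries (log2 0.35, adjusted p = 0.524).

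Klf13, a GC-box-binding factor known to interact with the co-repressor Sin3a, had the widest peak of the members, at 2728 bases. This peak (chr7:63937202-63939929) covers the RefSeq start and is annotated as exonic, 2.26 kb before the annotated start. It had 158, 157 and 163 CPM in aged and 157, 147 and 136 CPM in young libraries, and the ages overlapped at young replicate 1 (log2 0.12, adjusted p = 0.631). A narrow peak of 93 bases lay within 1 kb of the annotated start, with 4.82, 4.94 and 5.51 CPM in aged and 5.05, 5.03 and 4.64 CPM in young libraries (adjusted p = 0.952).

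Of the 6 peaks from 11.3 to 38.1 kb upstream of Klf13, 4 had a higher mean in aged libraries, and none was called. The other two, at 11.3 and 16.1 kb, were lower in aged in each same-numbered pair (log2 -0.10 and -0.13, adjusted p = 0.898 for both). At 20.4 kb, aged libraries had 30.0, 26.7 and 30.0 CPM and young libraries 22.5, 24.7 and 27.9 CPM (log2 0.20, adjusted p = 0.535). A peak at 29.1 kb had 4.91, 6.19 and 5.40 CPM in aged and 3.09, 4.99 and 3.59 CPM in young libraries (log2 0.43, unadjusted p = 0.0241, adjusted p = 0.399), and the ages overlapped at young replicate 2. The farthest, at 38.1 kb, had 2.27, 1.29 and 2.02 CPM in aged and 0.702, 1.51 and 1.37 CPM in young libraries (log2 0.50, adjusted p = 0.588).

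The 50 kb limit ran through this upstream stretch. The peak nearest to it on the outer side, 50.9 kb upstream of Klf13 (chr7:63986728-63987600), had 17.6, 20.4 and 20.2 CPM in aged and 14.3, 15.2 and 12.2 CPM in young libraries. Nearest on the inner side was a Klf15 peak at 49.9 kb, with 4.62 ± 1.09 CPM in aged and 5.11 ± 0.315 CPM in young (SD, n = 3 each). Only 4 peaks of member genes lay beyond the limit, 3 of Klf6 and this 1 of Klf13. Without a distance limit 3 member peaks were called, the added one being this Klf13 peak, higher in aged.

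Klf7, which is known from neuronal development in mice, had 3 peaks. Its promoter peak (chr1:64121216-64122634) had 78.6, 76.9 and 77.4 CPM in aged and 77.8, 71.8 and 73.0 CPM in young libraries (adjusted p = 0.841). In intron 2, 17.1 kb past the start, a peak had 42.5, 33.3 and 35.8 CPM in aged and 41.8, 35.7 and 46.9 CPM in young libraries (log2 -0.15, adjusted p = 0.689). Both overlapped between the ages.

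Counts were also summed per gene over all its peaks within 50 kb and tested over 29256 genes. CPM of these sums are relative to the counts within 50 kb of any gene, so they run higher than CPM of single peaks and are not set against them. Of the 10 members 1 was called, Klf3, higher in aged, against 1.39% of all genes called and 0.485% called higher in aged. An unadjusted p under 0.05 was found for 3 members, Klf2, Klf3 and Klf10, against 11.0% of all genes. The Klf3 sum was 95.7, 95.6 and 98.4 CPM in aged and 77.0, 86.5 and 74.7 CPM in young libraries. With a mean of 96.6 ± 1.58 CPM in aged and 79.4 ± 6.25 CPM in young (SD, n = 3 each), the log2 fold change was 0.28 (SE 0.07, edgeR adjusted p = 0.0352). DESeq2 kept the call (adjusted p = 0.0257), as did the replicate block (0.00318) and leaving out young replicate 2 (0.00284). It was lost without aged replicate 1, 2 or 3 (0.112, 0.0641 and 0.203), without young replicate 1 or 3 (0.133 and 0.154) and after thinning (0.120).

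Aged sums lay above young sums without overlap for 4 members, Klf2, Klf3, Klf10 and Klf13, against 7.70% of all genes, and below for no member. In either direction, 15.7% of all genes were without overlap. Klf10 had 268.9, 266.2 and 276.3 CPM in aged and 253.4, 245.5 and 232.2 CPM in young libraries (log2 0.15, adjusted p = 0.323). Klf10 was called with the replicate block (adjusted p = 0.0494), where 3.21% of all genes were called. The Klf2 sum was 46.2, 48.5 and 46.7 CPM in aged and 41.3, 42.6 and 40.2 CPM in young libraries (log2 0.19, adjusted p = 0.283). The Klf13 sum was 244.1, 236.0 and 251.1 CPM in aged and 235.2, 224.7 and 219.3 CPM in young libraries (log2 0.11, adjusted p = 0.550). The remaining members, Klf4, Klf5, Klf6, Klf7, Klf9 and Klf15, overlapped between the ages.

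**Figure D4:**
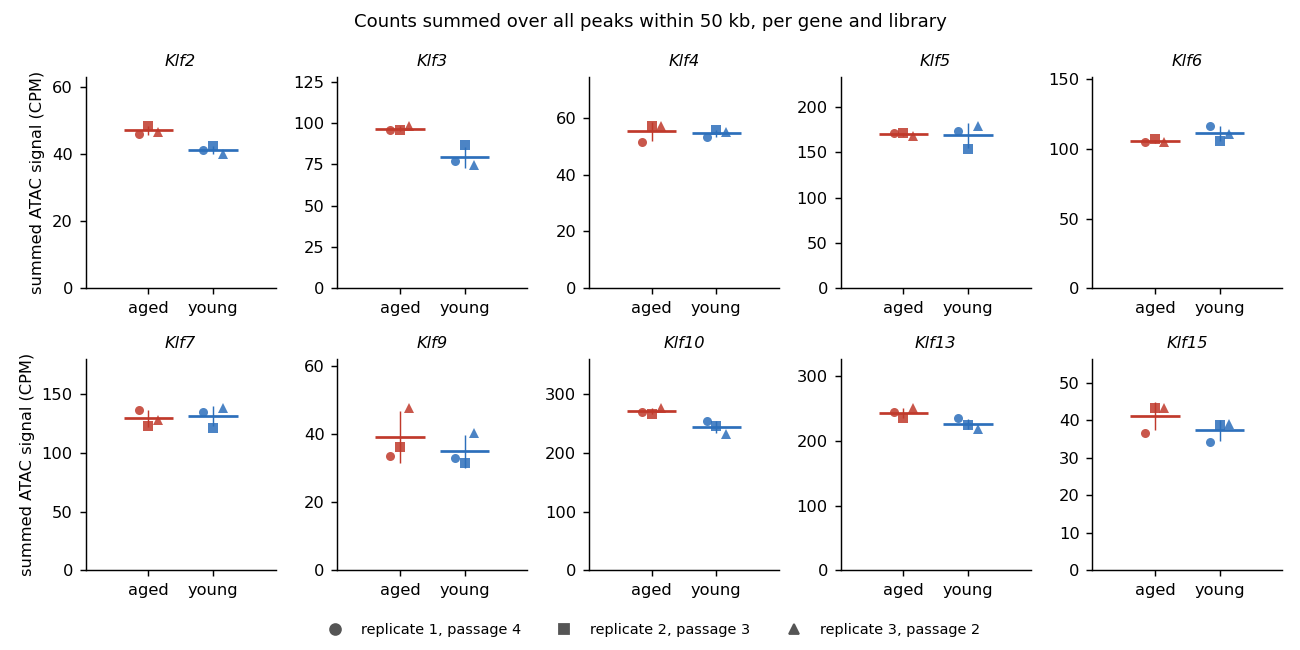
Summed ATAC signal in CPM (vertical axes from 0, scaled per gene) over all peaks within 50 kb of each member, with aged in red left of young in blue, bars for the mean and SD (n = 3) and symbols for the passage. Aged values lie above young values without overlap for Klf2, Klf3, Klf10 and Klf13.

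The 77 Klf peaks together took 0.108% ± 0.00149 of all counts in aged libraries and 0.102% ± 0.00142 in young libraries (SD, n = 3 each). The single libraries were at 0.1066, 0.1079 and 0.1095% in aged and 0.1028, 0.1021 and 0.1001% in young, without overlap. The share was thus 6.21% higher in aged, by 0.00631 percentage points (exact permutation p = 0.1, two-sided, the smallest that 3 libraries against 3 allow). It includes the 2 called peaks, so it is not independent of those calls. These were the Klf3 promoter (mean 75.8 CPM in aged, 60.5 CPM in young) and the Klf10 intron peak (66.3 and 51.6 CPM). Fold changes were negative at 29 of the 72 tested peaks. No share of other gene sets was set beside this one.

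Levels at the start sites were compared per kb of peak, over all 6 libraries. Klf5 was the most open (85.3 ± 6.60 CPM per kb, SD, n = 6), followed by Klf3 (67.1 ± 9.58), Klf10 (63.5 ± 4.19) and Klf6 (62.6 ± 2.63), and the ranges of neighbours in this order overlapped. Klf3 was second in aged libraries (mean 74.6 CPM per kb), while in young libraries its mean of 59.6 was below those of Klf6 (62.8) and Klf10 (61.0). Klf13, at the peak over its RefSeq start, and Klf7 came next, at 56.1 ± 3.59 and 53.5 ± 1.97 CPM per kb, below the range of Klf6. A lower group held Klf2 (30.1 ± 3.03), Klf9 (25.7 ± 4.13) and Klf4 (19.0 ± 2.05 CPM per kb), again with overlapping neighbours. Klf15 was lowest, at 4.60 ± 0.525 CPM per kb over its RefSeq start. The median coding promoter had 21.3 CPM per kb. All members but Klf4 and Klf15 were above it in every library. Klf15 was below it in every library, and Klf4 (16.8 to 21.5 CPM per kb) lay on both sides.

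By position, 32 of the 77 peaks were annotated as intergenic, 29 as intronic, 7 as promoter, 5 as exonic and 4 as transcription termination site. By RefSeq spans, 27 lay inside their own gene, 17 inside the span of another gene alone and 33 outside genes. Among the 17 were the promoter peaks of Klf3, Klf4 and Klf10, whose centres lie upstream of the Klf gene and within the span of a predicted gene.

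Other genes around the family were described from lists of peaks within 50 kb, with counts over the same test. Over all peaks tested, 1.13% were called, 9.71% had an unadjusted p under 0.05, and the median log2 fold change was -0.01. The other KLF genes (Klf1, Klf8, Klf11, Klf12, Klf14, Klf16 and Klf17) had 0 of 21 tested peaks called by edgeR, 2 with an unadjusted p under 0.05, and a median log2 fold change of 0.04. Among them Klf11, also a TGF-beta-inducible factor, had a promoter at 97.3 CPM in aged and 99.2 CPM in young. The SP factors had 42 tested peaks, of which 1 (2.38%) was called, lower in aged, 4 with an unadjusted p under 0.05 (9.52%), and a median of 0.04.

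That SP peak lies in exon 3 of Sp8, a developmental factor of limb and brain, 3.24 kb past its start. It had 1.36, 1.25 and 1.40 CPM in aged libraries, against 2.81, 3.14 and 2.06 CPM in young libraries (log2 -0.995, SE 0.24, edgeR adjusted p = 0.0251). Every aged library was below every young one. The call was lost with DESeq2 (0.141) and without any of the aged replicates 1 to 3 (0.0764, 0.0921 and 0.0989) or young replicate 1 or 2 (0.0638 and 0.199), and after thinning (0.942). The promoter of Sp1, a widely expressed SP factor, had 192 CPM in aged and 191 CPM in young.

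Genes whose products act with or on KLF proteins, such as Ctbp1, Ctbp2 and Sin3a, had 0 of 48 peaks called by edgeR, 6 with an unadjusted p under 0.05, and a median of 0.03. Genes often given as KLF targets, such as Ccnd1, Cdkn1b and Myc, had 0 of 103 called, 8 with an unadjusted p under 0.05, 1 called with the replicate block, and a median of 0.05. Upstream regulators had 2 of 119 peaks called (1.68%), 7 with an unadjusted p under 0.05 (5.88%), and a median of 0.00147. A peak 42.6 kb upstream of Tgfbr1, a TGF-beta receptor, was lower in aged (log2 -0.59, adjusted p = 0.00870). It lies in an intron of another gene, and the call was lost without aged replicate 1 or 3 (0.0604 and 0.167) or young replicate 3 (0.0860), and after thinning (0.554). A peak 49.0 kb past the start of Smad3, a signal transducer of that receptor, was higher in aged (log2 0.90, adjusted p = 0.0351), and this call was lost without any 1 of the 6 libraries (0.0633 to 0.170), with DESeq2 (0.190) and after thinning (0.517).

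Markers of cell types in the cultures were set beside these values. None of the 7 marker lists had a called peak by edgeR, and 4 peaks in all were called with the replicate block. An unadjusted p under 0.05 was found for 13 of 77 stem cell peaks (16.9%) and 8 of 41 enterocyte peaks (19.5%), and for 8.77% to 14.3% of the other 5 lists, against 8.33% of Klf peaks and 9.71% of all peaks. Summed promoter signal of 7 stem cell markers was 208 to 226 CPM in aged and 209 to 234 CPM in young libraries. For goblet cells, in which Klf4 acts, 5 of 7 markers had a promoter peak, with sums of 40.7 to 43.8 CPM in aged and 37.3 to 43.3 CPM in young, and Muc2 had none. For enterocytes it was 6 of 7, with 95.2 to 112 CPM in aged and 87.6 to 105 CPM in young. The enterocyte peaks within 50 kb had a median log2 fold change of 0.15, and 28 of 41 were positive. Positive fold changes were found at 17 of 29 endothelial, 51 of 105 epithelial and 37 of 77 stem cell peaks. They were found at 24 of 57 goblet, 6 of 14 immune and 9 of 25 stromal peaks. Over all peaks tested, 48.0% were positive. Stromal markers had a promoter peak for 4 of 8, with 25.4 to 31.1 CPM in aged and 22.6 to 28.2 CPM in young, and Col1a2, Col3a1, Dcn and Acta2 had none. Most of this sum was Pdgfra, with 18.4, 22.8 and 19.0 CPM in aged and 20.1, 19.7 and 16.0 CPM in young libraries, where the ages overlapped. The part of cell type shares in the Klf values was not tested.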

How the data were processed

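The authors deposited counts per consensus peak for 6 libraries and an annotation of the same peaks, which the labels place on GRCm38. Per the file headers, the counts are raw output of featureCounts, not normalised. Per the submitters' processing notes, BWA 0.7.17-r1188, MACS2 2.2.7.1 and featureCounts 2.0.1 were used, beside SAMtools 1.10, bedtools 2.29.2, Picard 2.23.1 and Trim Galore 0.6.4. The handling of duplicates and of the Tn5 offset: not given in the sources used. The distance to the start site, a signed score in bases in the deposited annotation, was used to choose peaks. Start positions are printed 1-based. The reads carry no molecular identifiers, and 20 PCR cycles were run. The SDs, standard errors and p-values rest on the spread between libraries.

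The fit was edgeR 4.0.16 (R 4.3.3), with TMM factors, filterByExpr (minimum count 10; 24678 peaks left out) and the robust quasi-likelihood F test without a block, and the script was tested on simulated data. In the titles, same-numbered aged and young libraries have 1 culture code and passage in common, so each number was read as a pair, although the descriptions give 1 code to all 6 libraries. Values with the block rest on this reading. Within pairs, deviations from group means correlated weakly (r = 0.0738, 0.126 and 0.144). Every pair of libraries differed by more than counting noise (chi-square of 1.72 to 3.61 per degree of freedom). Alternatives were RLE factors, total counts, no filter, each library left out, the block, DESeq2 1.42.0, other distance limits, and 1 random thinning to 7278161 counts. Their use on the lists of other genes was added after seeing the data.

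The members and lists were chosen with earlier results of these data known. Named peaks were, per gene, the promoter peak and the strongest farther peak, every called peak, the 10 next smallest p-values by age, and called peaks of other KLF and SP genes. The Klf5 peak 17.5 kb downstream, the Klf15 peak over the RefSeq start, the peaks at the 50 kb limit and the Klf11, Sp1, Kdr, Tgfbr1 and Smad3 peaks, and those 11.3 and 16.1 kb upstream of Klf13, were named after their values were seen.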

Additional observations from a re-analysis of the deposited data

How the results depend on the processing

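The number of Klf peaks called, 2, was 1 with total counts or DESeq2, 0 after thinning, 0 to 2 with 1 library left out, 4 with the replicate block, 2 within 10 kb of the start and 3 at any distance. It was 0 without aged replicate 1 or 3 or young replicate 1 or 3, and without aged replicate 2 the 1 call was the Klf6 peak at 31.6 kb. Klf promoter calls (1) went to 0 with total counts, DESeq2 or thinning and 0 to 1 with a library left out. Gene sum calls (1) were 2 with the block, 0 after thinning and 0 to 1 with a library left out. Calls in the lists of other genes (3) were 4 with the block, 1 with DESeq2, 0 after thinning and 0 to 2 with a library left out. Over all peaks, the 1491 calls became 3523 with the block, 883 with DESeq2, 102 after thinning and 830 to 1902 with a library left out. Among named member peaks, the pairing changed only the calls of the Klf6 peak at 31.6 kb and the Klf15 peak at 11.9 kb. Passage calls stayed at 0 in every setting run. The Klf share difference was 0.00552 to 0.00704 percentage points with a library left out.

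Of 490 comparisons over 41 named values, 22 changed sign, all of values called in neither setting. After thinning these were Klf2 at 47.0 kb (-0.092), the Klf4 intron (0.050), the Klf6 promoter (0.11), the Klf6 intron (0.14) and the Klf6 sum (0.00876). With a library left out, ranges crossed 0 for Klf2 at 47.0 kb (-0.083 to 0.18), Klf3 at 15.1 kb (-0.10 to 0.24), the Klf5 intron (-0.22 to 0.12), the Klf6 promoter (-0.028 to 0.045) and intron (-0.076 to 0.039), the narrow Klf13 peak (-0.0023 to 0.10) and the sums of Klf4 (-0.011 to 0.064), Klf5 (-0.057 to 0.062), Klf7 (-0.078 to 0.023) and Klf9 (-0.0069 to 0.30). Scaling moved the median of all peaks little, to -0.01 with RLE and -0.02 with total counts. The causes were not tested. Depth limits young replicate 1 most.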
